A study of Mus musculus with 6 samples.

Results

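Messenger RNA of 10 mouse genes of lipid uptake, storage and efflux was measured in macrophages of 3 polarization states, without and with gamma irradiation. The genes are Abca1, Abcg1, Apoe, Nr1h3, Lpl, Cd36, Plin2, Mylip, Fabp4 and Soat1. They were taken by symbol from the 24062 genes of the deposited count tables, and all 10 were found. The rule that chose them used symbols and no measured value, although earlier results of these data were known when it was made.

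Macrophages take up lipoprotein particles and fatty acids through scavenger receptors and lipases, store the surplus as triglyceride and cholesteryl ester in lipid droplets, and return cholesterol to the blood through transporters that load it onto apolipoproteins. The oxysterol sensor LXR, encoded by Nr1h3 and Nr1h2, switches on the genes of efflux when cholesterol accumulates. Macrophages in which uptake outweighs efflux become the foam cells of arterial plaques.

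The cells were RAW264.7, a mouse macrophage line, so each library comes from the same line, although bone marrow is the tissue given in the labels. M0 cells had no polarizing treatment, M1 cells were given LPS at 100 ng/mL with IFN-γ at 20 ng/mL, and M2 cells IL-4 at 20 ng/mL, in both cases over 24 h. RM0, RM1 and RM2 stand for these states after 10 Gy of gamma radiation and a further 24 h of culture. Each condition is 1 library of RNA pooled from 5 wells, so a difference between a pair of libraries has no replicate check and carries no p-value. The sources used here do not say whether the non-irradiated cells were cultured for those further 24 h. Where they were not, irradiation and time in culture cannot be told apart.

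Library totals ranged from 17894937 to 18870516 counts. Levels are also given as CPM, counts relative to library size, after TMM scaling, which assumes that most genes do not differ between libraries. A gene was called higher or lower at a 2-fold difference and at least 10 counts in either library, and intervals are 95% intervals of the log2 fold change that cover counting error only. All 8 macrophage markers examined had at least 10 counts in every library, among them Csf1r with 4855 to 14190 and Adgre1, listed under its older symbol Emr1, with 1623 to 5027. Of 8 adipocyte markers, examined because fat cells also express Lpl, Cd36 and Fabp4, Adipoq, Lep, Cidec and Cfd had 0 counts in every library and Plin1 had 1 count in M2 alone. The other 3 had at least 10 counts in every library, Lipe with 341 to 476, Retn with 10 to 39 and Slc2a4 with 11 to 76. The summed level of the adipocyte list was 20.7 to 34.4 CPM, most of it Lipe, and that of the macrophage list was 17800 CPM in M1, 20600 in RM1 and 23200 to 33400 in the other 4 libraries. Most of the latter sum was Lyz2, at 13500 CPM in M1 and 23700 in M0, while Adgre1 went from 81.8 CPM in M0 to 340 in M1 and Fcgr1 from 49.3 to 352.

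The 10 genes together took between 0.208% of all counts, in M1, and 0.359%, in RM2. Per kilobase of transcript, Plin2 had the highest level of the 10 in every library, at 514 to 970 CPM per kb, and Apoe the lowest, at 0.286 to 0.63. Cd36 was the next highest after Plin2 in 5 libraries, and Fabp4 took that place in M0, with 172 against 127 CPM per kb. The length used for Fabp4 was the 896 bases of its listed transcript. Its longest transcript has 4231 bases, so its place among the 10 depends on that choice. Abca1 stood below Abcg1 and Lpl in the 3 non-irradiated libraries, at 5.82 to 11.7 CPM per kb. In RM0 and RM2 it stood above both, and in RM1 it had 22.3 CPM per kb beside 23.7 for Abcg1, with overlapping counting intervals.

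**Figure D1:**
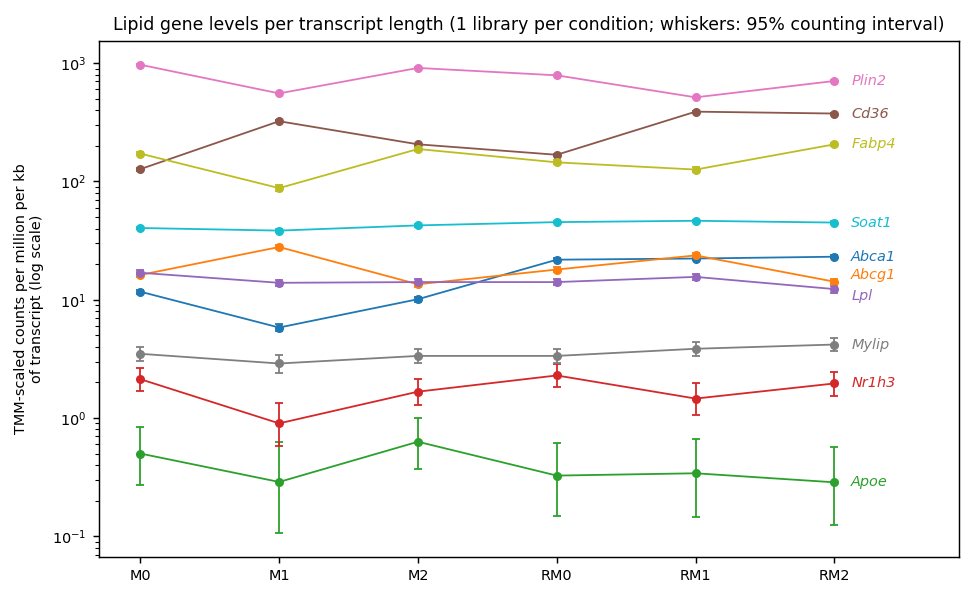
Level of each of the 10 genes in the 6 libraries, as TMM-scaled CPM per kilobase of transcript on a log axis. Points are 1 library each, whiskers are 95% counting intervals, and lines join the points of 1 gene without implying an order of conditions. Plin2 lies on top at 514 to 970 and Apoe at the bottom, and Abca1 crosses Lpl between the non-irradiated and the irradiated libraries.

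Abca1 encodes the transporter that moves cholesterol and phospholipid out of the cell onto lipid-poor apolipoprotein A-I, the first step of high-density lipoprotein formation. It lies on chromosome 4 of GRCm38, from 53030789 to 53159895 on the minus strand (NM_013454). Its promoter is shown because Abca1 was the gene of the 10 with the largest differences after irradiation. The 250 bases before the listed start, chr4:53159896-53160145 on the minus strand, read 5′ to 3′ from RefSeq (GRCm38.p6) as follows, with the matches of all searched motifs in capitals.
Abca1: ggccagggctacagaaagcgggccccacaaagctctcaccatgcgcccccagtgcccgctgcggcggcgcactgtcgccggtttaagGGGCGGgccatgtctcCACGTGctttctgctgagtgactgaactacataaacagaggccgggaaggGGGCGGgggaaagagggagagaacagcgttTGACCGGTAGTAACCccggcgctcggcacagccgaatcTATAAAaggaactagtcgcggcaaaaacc

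The capitals mark, in the order of the sequence, a GC box, an E-box, another GC box, a direct repeat with 4 spacing bases and a TATA box. The direct repeat is the form of element that LXR binds, searched on both strands as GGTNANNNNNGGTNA. It was found on the opposite strand as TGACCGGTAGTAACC, 67 bases before the start. Of the 32851 promoters of this length in the RefSeq table, 0.621% held that motif, against 32.7% for the GC box GGGCGG, 12.4% for TATAAA and 6.02% for the E-box CACGTG. The table held 10 promoters of 7 of the genes, Abca1, Apoe, Nr1h3, Cd36, Plin2, Mylip and Soat1, and the direct repeat was found in that of Abca1 alone. The direct repeat with 1 spacing base bound by PPAR receptors, searched as GGTNANNGGTNA, was in 0.938% of all promoters and in none of these 10.

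Without irradiation Abca1 had 2376 (M0), 883 (M1) and 2096 (M2) counts, and with it 4392 (RM0), 3810 (RM1) and 4703 (RM2). As CPM these were 120, 59.7 and 103 without irradiation and 224, 229 and 237 with it. The 3 irradiated libraries were all above the 3 non-irradiated ones, and their levels lay close together while the non-irradiated levels were spread.

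The log2 fold change of Abca1 was 0.90 in RM0 against M0 (0.832 to 0.977), 1.93 in RM1 against M1 (1.83 to 2.04) and 1.20 in RM2 against M2 (1.12 to 1.27). The RM1 and RM2 differences passed the 2-fold call and that of RM0, at 1.87-fold, did not. The differences between RM1 and RM0, 0.03 (-0.0352 to 0.0907), and between RM2 and RM0, 0.08 (0.0211 to 0.14), were small beside these. Scaled by library totals alone, the first of them was -0.22. With 1 library per condition, whether the response differed between the states was not tested.

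**Figure D2:**
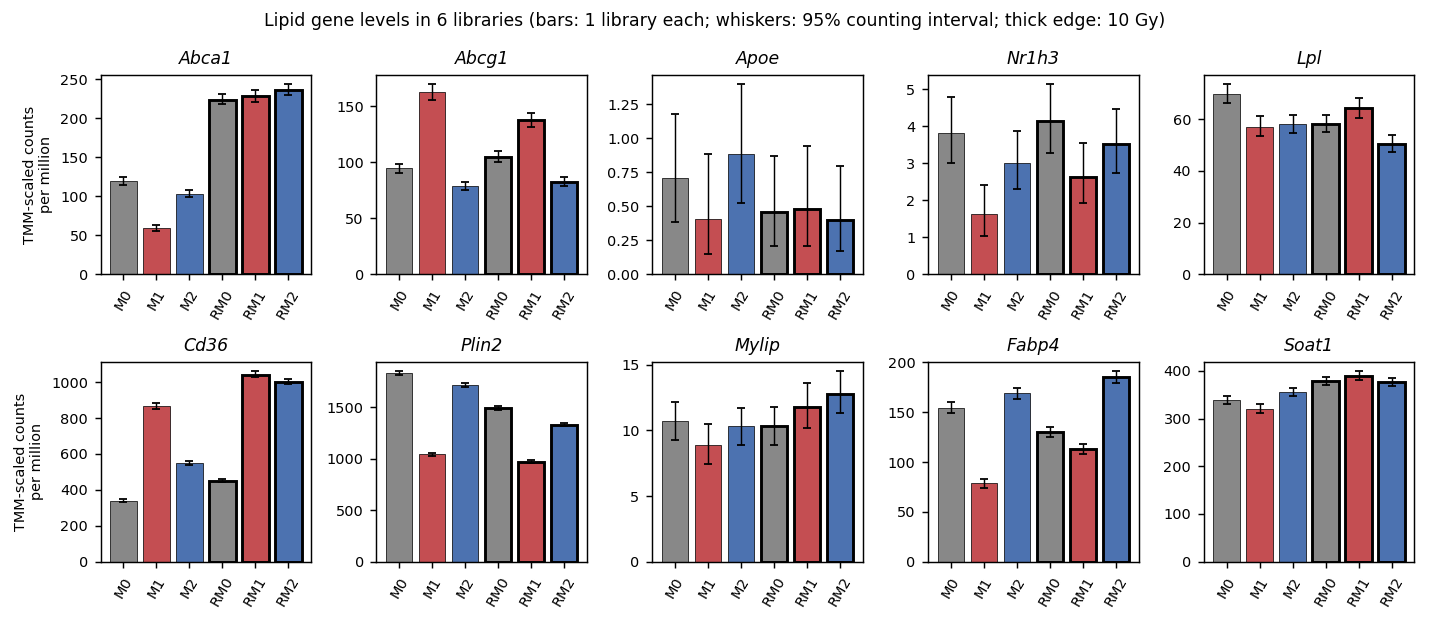
TMM-scaled CPM of each gene in M0, M1, M2, RM0, RM1 and RM2, with each gene on its own axis starting at 0. Bars are 1 library each, thick edges mark 10 Gy, and whiskers are 95% counting intervals. The 3 irradiated Abca1 bars stand at 224 to 237, above all non-irradiated bars, and the Cd36 bars of M1, RM1 and RM2 stand highest for that gene.

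A single model of all 6 libraries, with terms for polarization and irradiation, was used to test whether irradiation had an effect common to the 3 states (edgeR, quasi-likelihood F-test). Here the states stand in for replicates, which leaves 2 residual degrees of freedom and assumes the same effect in each state. Abca1 passed with a log2 change of 1.34 (SE 0.165, adjusted p = 0.00754) and was higher in 3 of 3 states. It was the 1 gene to pass of the 9 tested, beside 0.475% of the 11574 genes in the test, and Apoe was not tested because of its low counts. In that fit Cd36 had a change of 0.51 (SE 0.133, adjusted p = 0.138) and the other 7 genes lay between -0.26 and 0.30. Abca1 no longer passed in a model without polarization, where no gene of the table did (1.29, adjusted p = 1.0). Under the other alternatives its change lay between 1.06 and 1.56 and it passed, with adjusted p from 3.85e-23 without the M1 and RM1 libraries to 0.00509 with DESeq2 size factors. Each fit without the libraries of 1 state, whichever state it was, left fewer residual degrees of freedom than the main fit. A smaller p from such a fit is thus no stronger support. Without M1 and RM1, 523 of all genes passed in place of 55. In bulk RNA, more cells expressing a gene and more RNA of it per cell cannot be told apart.

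Abcg1 encodes the transporter that passes cholesterol to mature high-density lipoprotein (NM_009593, chromosome 17, 31057694 to 31117981). Its counts were 1877, 2409 and 1599 in M0, M1 and M2 and 2056, 2302 and 1645 in RM0, RM1 and RM2, or in the same order 94.6, 163, 78.8, 105, 138 and 82.9 CPM. The M1 and RM1 libraries were the highest pair, and irradiated and non-irradiated levels overlapped. Its differences after irradiation were 0.15, -0.24 and 0.07 for RM0, RM1 and RM2, and its irradiation term was -0.01 (SE 0.107, adjusted p = 0.982). Both sterol transporters are known LXR targets. The counting intervals of their log2 fold changes after irradiation did not overlap in any state. A part of LXR in these differences was not tested.

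Apoe, the apolipoprotein that macrophages secrete to carry cholesterol (NM_009696, chromosome 7, 19696244 to 19699166), was near the detection limit in this line. It had 14, 6 and 18 counts in M0, M1 and M2 and 9, 8 and 8 in RM0, RM1 and RM2. All 7 of its counting intervals included 0, so no difference was detectable at this depth. Its log2 fold change in RM2 against M2 was -0.96 (-2.55 to 0.135), which crossed the 2-fold line with a smaller prior count (-1.11) or with scaling by library totals (-1.02). For Apoe, Nr1h3 and Plin2 the start and end listed in the tables cover 57.7%, 58.9% and 31.2% of the RefSeq gene, so where in the gene their reads were counted is not known.

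Nr1h3 encodes LXR alpha (NM_001177730, chromosome 2, 91184061 to 91195116). It had few counts, 76, 24 and 61 in the M0, M1 and M2 libraries and 81, 44 and 70 in their irradiated counterparts. M1 and RM1 were the lowest libraries, at 1.62 and 2.64 CPM, and the other 4 lay between 3.01 and 4.13 CPM. After irradiation its differences were 0.11, 0.67 and 0.22 in RM0, RM1 and RM2, and every counting interval included 0. Mylip encodes the ubiquitin ligase IDOL, an LXR target that limits lipoprotein uptake (NM_153789, chromosome 13, 45389742 to 45411940). It had 212, 131 and 208 counts without and 201, 197 and 254 with irradiation, and its irradiation term was 0.22 (SE 0.148, adjusted p = 0.501).

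Cd36 encodes a scavenger receptor for oxidized lipoprotein and long-chain fatty acids (NM_001159558, chromosome 5, 17781690 to 17888959). Its counts were 6717 (M0), 12800 (M1) and 11165 (M2) without irradiation and 8825 (RM0), 17348 (RM1) and 19929 (RM2) with it. In CPM, M0, M1 and M2 stood at 339, 866 and 550, and RM0, RM1 and RM2 at 450, 1040 and 1000. Both M0 libraries were below every polarized library, and each irradiated library was above the non-irradiated one of its state.

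The log2 fold change of Cd36 was 0.41 in RM0 against M0 (0.365 to 0.457), 0.27 in RM1 against M1 (0.232 to 0.298) and 0.87 in RM2 against M2 (0.834 to 0.901). None reached 2-fold. Cd36 had the lowest GC content of the 10, 38.4% of its longest transcript, and in RM1 and RM2 the fold changes of all genes moved with GC content. The running median over GC went from 0.31 at the low end to -0.26 at the high end in RM1 against M1, and from 0.19 to -0.17 in RM2 against M2. With this trend removed, an alternative chosen after seeing the data, Cd36 stood at 0.50, -0.06 and 0.67 and Abca1 at 0.94, 1.90 and 1.16, so the direction for Cd36 in RM1 was not kept.

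Lpl encodes lipoprotein lipase, which releases fatty acids from triglyceride-rich particles (NM_008509, chromosome 8, 68880555 to 68906932). It had 1382, 844 and 1176 counts in M0, M1 and M2 and 1139, 1069 and 1001 in RM0, RM1 and RM2, a flatter pattern than that of Cd36. Its CPM lay between 50.5 and 69.7, and its irradiation term was -0.10 (SE 0.113, adjusted p = 0.704).

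Plin2 encodes the main lipid droplet coat protein of macrophages (NM_007408, chromosome 4, 86656565 to 86670059). Its counts were 36307 (M0), 15490 (M1) and 34907 (M2), and 29206 (RM0), 16177 (RM1) and 26480 (RM2), or in the same order 1830, 1050, 1720, 1490, 970 and 1330 CPM. M1 and RM1 were the lowest, and each irradiated library lay below that of its own state. The differences after irradiation were -0.30 (-0.319 to -0.274), -0.11 (-0.143 to -0.0788) and -0.37 (-0.39 to -0.344), none reached 2-fold, and scaling by library totals turned that of RM1 to 0.03. The irradiation term of Plin2 did not pass (-0.26, SE 0.121, adjusted p = 0.35).

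Fabp4, a carrier of fatty acids in the cytosol, lies on chromosome 3 (NM_024406, 10204343 to 10208576). Its counts were 3054, 1163 and 3420 in M0, M1 and M2 and 2551, 1880 and 3669 in RM0, RM1 and RM2. M1 was the lowest library at 78.7 CPM and RM2 the highest at 185. The differences after irradiation went both ways, at -0.24 in RM0, 0.52 in RM1 and 0.13 in RM2. Soat1 encodes the enzyme that esterifies cholesterol for storage (NM_009230, chromosome 1, 156428108 to 156474328). It was the steadiest of the 10, with 321 CPM in M1 at the lowest and 389 CPM in RM1 at the highest, and its irradiation term was 0.17 (SE 0.103, adjusted p = 0.452).

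Of the 10 genes, 0 were called in RM0 against M0, beside 1.54% of the 11688 genes that had enough counts. Abca1 was the 1 gene called in RM1 against M1, of 9 with enough counts, beside 5.34% of all such genes, and the 1 gene called in RM2 against M2, of 10, beside 1.97%. Over the genes with enough counts the median log2 difference was 0.02 for RM0, 0.28 for RM1 and 0.11 for RM2, against -0.00, -0.01 and -0.00 over all genes tested. Apart from Abca1 the genes thus stayed under 2-fold in all 3 states on this scale. Scaled by library totals alone, the median of all genes in RM1 against M1 was 0.13, the split of calls over all genes went from 353 higher and 258 lower to 482 and 202 in RM1, and from 122 and 110 to 98 and 149 in RM2, and Abca1 stood at 0.85, 2.08 and 1.14.

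**Figure D3:**
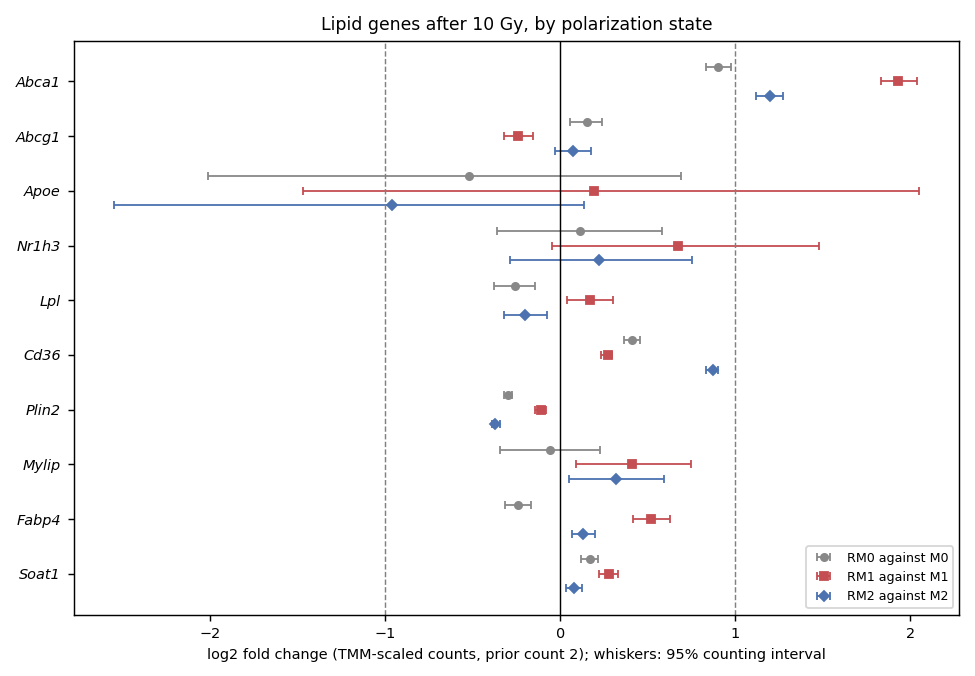
Log2 fold change of each gene after 10 Gy in the M0, M1 and M2 states, from TMM-scaled counts with a prior count of 2. Points are pairs of single libraries, whiskers are 95% counting intervals, and dashed lines mark 2-fold. Abca1 lies to the right in all 3 states, at 0.90, 1.93 and 1.20, and Apoe has the widest intervals.

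In M1 against M0, Cd36 was called higher at 1.35 (1.31 to 1.40), and Nr1h3 at -1.19 (-1.97 to -0.561) and Abca1 at -1.0 (-1.12 to -0.892) were called lower. That is 3 of 10 genes, beside 22.7% of all genes with enough counts, of which 9.37% were higher and 13.3% lower. Abca1 lay on the 2-fold line and its call was lost with DESeq2 size factors (-0.97) and with the GC trend removed (-0.94). Fabp4 at -0.97 (-1.07 to -0.871) fell just short of the line and was not called, Plin2 stood at -0.81 (-0.832 to -0.778) and Abcg1 at 0.78 (0.696 to 0.872).

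These values depend on the scaling, since the M1 library has a TMM factor of 0.8004 where M0 has 1.087. Scaled by library totals alone, the median of all genes in M1 against M0 was -0.46 and the split of calls moved from 1104 higher and 1569 lower to 601 higher and 2984 lower. On that scale Cd36 stood at 0.91 and Abcg1 at 0.34, both still above 0, and Abca1, Nr1h3, Plin2, Fabp4 and Apoe were called lower at -1.44, -1.60, -1.25, -1.41 and -1.01.

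In the model over all 6 libraries, which takes the M1 effect without and with irradiation as alike, 5 of the 9 genes tested passed. This is close to the 47.6% of all genes that passed, 23.3% as higher and 24.3% as lower. Cd36 was higher (1.29, SE 0.165, adjusted p = 0.000141), as was Abcg1 (0.59, SE 0.131, adjusted p = 0.00383). Plin2 (-0.71, SE 0.148, adjusted p = 0.00279), Fabp4 (-0.59, SE 0.164, adjusted p = 0.0131) and Nr1h3 (-0.91, SE 0.278, adjusted p = 0.02) were lower, all by edgeR's quasi-likelihood test. The call of Nr1h3 was lost with the DESeq2 Wald test (adjusted p = 0.0836), and over its other alternatives the adjusted p was 0.0183 to 0.0443. Each of the 5 had the direction of its term in both M1 against M0 and RM1 against RM0. The term is fitted from these same libraries, so this is no separate check.

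Among the irradiated libraries, the difference between RM1 and RM0 was 1.21 for Cd36 (1.17 to 1.25), 0.40 for Abcg1 (0.31 to 0.482), -0.62 for Plin2 (-0.647 to -0.592), -0.21 for Fabp4 (-0.294 to -0.121) and -0.63 for Nr1h3 (-1.21 to -0.101). Cd36 was the 1 gene called of 9, beside 14.0% of all genes. It fell under 2-fold when scaled by library totals (0.96) or with the GC trend removed (0.97). On library totals the median of all genes here was -0.25, with 498 called higher and 1493 lower in place of 722 and 922.

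IL-4 was followed by smaller differences. In M2 against M0, 0 of the 10 genes were called, beside 1.44% of all genes, with Cd36 the highest at 0.70 (0.657 to 0.745) and Nr1h3 the lowest at -0.34 (-0.86 to 0.156). In RM2 against RM0, Cd36 was the 1 gene called of 9, at 1.16 (1.12 to 1.19), beside 2.61% of all genes. The fold changes of all genes in that comparison ran from a median of 0.44 at the low end of GC content to -0.34 at the high end, and with this trend removed Cd36 stood at 0.71. Fabp4 was next at 0.51 (0.433 to 0.58), and at 0.24 with the trend removed. In the model, 0 of 9 genes passed for M2 by edgeR's quasi-likelihood test, beside 0.19% of all genes. Cd36 missed the threshold (0.94, SE 0.164, adjusted p = 0.0501). Cd36 and Abcg1 had an unadjusted p under 0.05, and the share of all genes that did so was not computed. With the DESeq2 Wald test Cd36 was the 1 gene that passed, beside 41 of all genes.

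**Figure D4:**
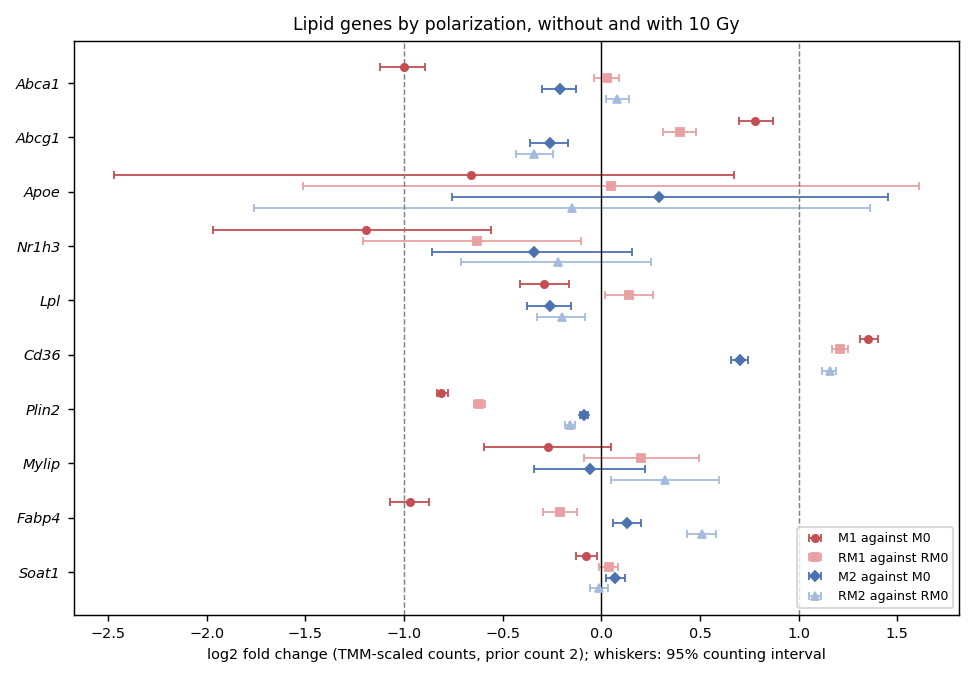
Log2 fold change of each gene with M1 or M2 polarization, without irradiation (dark) and with 10 Gy (light), from TMM-scaled counts with a prior count of 2. Points are pairs of single libraries, whiskers are 95% counting intervals, and dashed lines mark 2-fold. Cd36 lies to the right in all 4 comparisons, at 0.70 to 1.35, and the M1 values of Abca1, Nr1h3, Plin2 and Fabp4 lie to the left without irradiation.

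A further 90 genes of lipid handling were counted in 7 lists, namely lipid sensors and their partners, LXR target genes, uptake, fatty acid binding and activation, droplet coat and storage, ester hydrolysis, and sterol trafficking. None of the 62 with enough counts was called in RM0 against M0 or in RM2 against M2, beside 1.54% and 1.97% of all genes. In RM1 against M1 the LXR target Cd5l was the 1 gene called of 61, beside 5.34% of all genes, with 7 counts in M1 and 19 in RM1 (1.10, -0.0456 to 2.76). No other LXR target on the list was called, and the median log2 fold change of its genes with enough counts was 0.14, 0.09 and 0.15 in RM0, RM1 and RM2. In the irradiation term 0 of the 61 genes tested passed by edgeR's quasi-likelihood test, beside 0.475% of all genes. An unadjusted p under 0.05 was seen for 8 of the 61, and the share of all genes under that threshold was not computed. With the DESeq2 Wald test 2 passed, beside 114 of the 11574 genes. Those 2, named after their values were seen, were the lipoprotein receptor Lrp1 (0.59) and the fatty acid activating enzyme Acsl4 (0.61).

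The genes that differed with M1 polarization were spread over the lists. In M1 against M0, 7 were called higher and 4 lower of 62, beside 22.7% of all genes in either direction. The oxidized lipoprotein receptor Olr1 had 15 counts in M0 and 155 in M1 (3.62, 3.03 to 4.66), and the lysosomal cholesterol carrier Npc2 had 12176 and 44513 (2.29, 2.27 to 2.32). On the lower side, the lipase inhibitor Angptl4 had 127 and 5 counts (-3.87, -5.89 to -2.98), the sterol 27-hydroxylase Cyp27a1 had 787 and 195 (-1.58, -1.82 to -1.36), and Cd5l had 28 and 7 (-1.39, -3.02 to -0.348).

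In the M1 term, 22 of the 61 genes tested passed as higher and 10 as lower by edgeR's quasi-likelihood test, where 47.6% of all genes passed. With the DESeq2 Wald test 29 passed, beside 4471 of all genes. Droplet coat and storage genes had 0 higher and 4 lower of 11, with a median of -0.26, and 2 of the 4, Plin3 and Soat2, passed with the DESeq2 Wald test. Fatty acid binding and activation had 6 higher and 2 lower of 10, with a median of 0.53, and sterol trafficking had 5 higher and 1 lower of 8, with a median of 0.48. Uptake genes had 5 higher and 2 lower of 14, LXR target genes 3 higher and 0 lower of 6, ester hydrolysis 2 higher and 0 lower of 5, and sensors and partners 1 higher and 1 lower of 7, with medians of 0.15, 0.33, 0.34 and 0.08. The median over all genes was -0.02.

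In RM1 against RM0, 6 of these genes were called higher and 3 lower, of 62 with enough counts, beside 14.0% of all genes in either direction. Olr1 (22 and 136 counts, 2.75), the sterol transporter Abcg4 (2 and 10 counts, 1.75) and Npc2 (14575 and 38984 counts, 1.65) were the highest. Angptl4 (95 and 4 counts, -3.83), Cyp27a1 (818 and 229 counts, -1.60) and the scavenger receptor Stab1 (184 and 52 counts, -1.56) were the lowest. Olr1, Npc2, Angptl4 and Cyp27a1 thus stood at an end of the list without and with irradiation.

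In M2 against M0, 3 of 63 genes were called, beside 1.44% of all genes, and the LXR target Arl4c was the highest of them, with 16 counts in M0 and 91 in M2 (2.33, 1.70 to 3.34), and in RM2 against RM0, where 2 of 60 were called beside 2.61% of all genes, it had 23 and 176 (2.81, 2.29 to 3.61). It was the 1 gene of 61 that passed the M2 term (2.71, adjusted p = 0.00792), beside 0.19% of all genes. Olr1 was called in both M2 comparisons (1.08 and 1.56), and Abcg4 in M2 against M0 with 4 and 13 counts (1.27, -0.0265 to 3.74). The sensor genes gave few reads for some members, with 0 to 2 counts for Pparg, the PPAR receptor that IL-4 is known to raise in primary macrophages, and 983 to 1160 for Nr1h2, which encodes LXR beta.

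**Figure D5:**
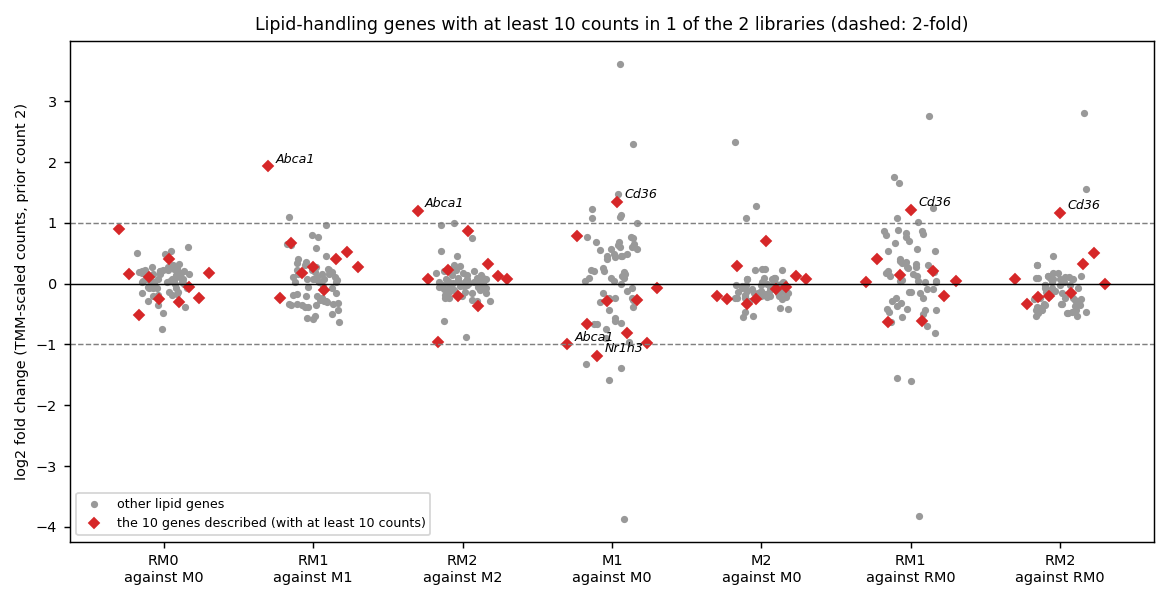
Log2 fold change of the 10 genes (red diamonds) and of the further lipid-handling genes (grey points) in 7 comparisons of single libraries, for genes with at least 10 counts in either library. Dashed lines mark 2-fold, and genes of the 10 that passed the call are named. Abca1 lies above all other lipid genes in RM1 against M1 and RM2 against M2, and the spread is widest in M1 against M0.

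The genes whose levels over the 6 libraries were most like those of each gene were taken from the 10189 genes whose mean count was 50 or more, by the Euclidean distance between log2 CPM values centred on their mean. For Abca1 these were Lrrc16a at a distance of 0.371, Eml1 at 0.45 and Gpalpp1 at 0.757. For Cd36 they were Flrt2 at 0.42, Itgav at 0.499 and Tbc1d9 at 0.51. For the other 7 genes with enough counts the nearest gene lay closer, from 0.045 for Mylip and Ctbs to 0.194 for Nr1h3 and Tor4a. By this measure Abca1 and Cd36 had no gene as close to them as the others had. The values were not scaled by their spread, so genes with wide differences tend to lie further from the rest whatever their pattern. The nearest gene of the 10 was Nr1h3 for Abca1, at 1.331, and Abcg1 for Cd36, at 1.414, both far behind the genes above. Soat1 and Mylip lay nearest to each other, at 0.278.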

How the data were processed

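RNA from 6 conditions was sequenced with 1 library each. The deposited values are HTSeq counts of reads for 24062 RefSeq genes, which the authors did not normalize. The submitters' processing notes name Trimmomatic 0.36, HISAT2 2.2.1, HTSeq 0.11.3 and the build mm10. The tables also hold the authors' annotation of each gene.

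Samples were grouped by the labels. Counts were scaled with TMM in edgeR 4.0.16 (R 4.3.3) from 11574 genes, those with 10 or more counts in 3 or more libraries, and a prior count of 2 was added before the log2 fold change. Calls needed 2-fold and at least 10 counts in 1 of the 2 libraries. Intervals (95%, exact Clopper-Pearson, on the share of reads) cover counting error only. Effects common to all states were tested in 1 additive model of all libraries with glmQLFit and glmQLFTest of edgeR over these genes, with Benjamini-Hochberg adjustment at 0.05. Scripts were tested on simulated data. Named genes were the 10 members, the 3 highest and 3 lowest called genes of the other lipid lists per comparison, and the 3 nearest patterns per member; 1 gene that this rule names is not reported here. The members and lists were chosen with earlier results of these data known. Transcript lengths, those of the listed accessions, and GC content, that of the longest transcript, came from GENCODE M21. No exon of the 10 genes overlapped an exon of another gene there, and 1.12% of the 100-base windows of Lpl and 0.224% of those of Plin2 occurred in another gene.

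The alternatives were DESeq2 1.42.0 size factors and Wald test, library totals, a prior count of 0.25, no filter, a 4-fold threshold, each state left out, models without polarization or irradiation and, chosen after seeing the data, removal of a running median of 501 genes over GC content. Other steps ran in Python 3.11.15 (pandas 2.3.3, scipy 1.17.1, numpy 2.4.6, matplotlib 3.10.9).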

Additional observations from a re-analysis of the deposited data

Results flagged for a closer look

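Of the 10 genes, 3 moved in opposite directions after irradiation in different states, by more than counting error. The share of all genes that did so was not computed, and counting intervals are narrow for genes with many counts. With 1 library per condition the difference between states was not tested in any of them. Abcg1, the transporter to mature high-density lipoprotein, was at 0.15 in RM0 against M0 and -0.24 in RM1 against M1. With the GC trend removed these were 0.13 and -0.14, and with library totals 0.10 and -0.10. Lpl, the lipoprotein lipase, was at -0.26 in RM0 against M0 and -0.20 in RM2 against M2, but at 0.17 in RM1 against M1, where it stood at 0.0 with the GC trend removed. Fabp4, the fatty acid carrier, was at -0.24 in RM0 against M0, 0.52 in RM1 against M1 and 0.13 in RM2 against M2. With the GC trend removed its values were -0.21, 0.32 and 0.02.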

How the results depend on the processing

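Counts cover single pooled libraries, so no spread between wells or cultures is known, and the model assumes the same effect in each state. Each condition has 1 library, so there were no replicate numbers to block on. Because the model also holds polarization, its irradiation term compares irradiated with non-irradiated libraries within each state. At a 4-fold threshold 0 genes were called in any of RM1 against M1, RM2 against M2, M1 against M0, RM1 against RM0 and RM2 against RM0. In RM2 against M2, 2 genes were called with library totals and with a prior count of 0.25, as Apoe joined Abca1. On library totals 98 of all genes were called higher there and 149 lower. In M1 against M0, 5 were called with library totals, all lower, on a scale where 601 of all genes were called higher and 2984 lower. In RM1 against RM0, 0 were called with library totals, beside 498 higher and 1493 lower of all genes. With the GC trend removed 0 were called there and in RM2 against RM0. Shares of all genes called were not computed at 4-fold, with a prior count of 0.25 or with the GC trend removed. In the irradiation term 3 genes passed without the M1 and RM1 libraries (Abca1, Cd36 and Plin2), where 523 of all genes passed in place of 55. With the DESeq2 Wald test 2 passed (Abca1 and Cd36), beside 114 of all genes. Without the polarization term 0 passed, and no gene of the table did. In the M2 term, where the main result was 0 beside 22 of all genes, 1 passed with no filter, beside 45. Without the M1 and RM1 libraries 3 passed (Cd36, Abcg1 and Fabp4), beside 1327 of all genes, and with the DESeq2 Wald test 1, beside 41. The irradiation term of Abcg1 turned from -0.01 to 0.01 with no filter and to 0.12 without the M1 and RM1 libraries, that of Fabp4 turned from 0.13 to -0.05 without those libraries, and the M1 term of Soat1 turned from -0.02 to 0.0 with DESeq2 size factors or the DESeq2 Wald test. The cause was not tested. Abca1 passed the irradiation term in all alternatives but the model without polarization.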
